A study of Mus musculus with 64 samples.

Results

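SMP cells of spleen and bone marrow were compared in scat mice in partial remission. SMP are sorted lineage-negative, Sca-negative, Kit-positive progenitors that are CD34-positive and low for CD16/32, a surface pattern of common myeloid progenitors. The comparison holds 6 of the 64 libraries of the series, 3 from spleen and 3 from bone marrow, chosen by the labels for tissue, population and disease state. All 6 libraries come from mice homozygous for scat (strain CbyJ.Cby-Rasa3(scat)/Llp), a mutation in Rasa3, whose protein speeds GTP hydrolysis by Ras and Rap1 and so turns both off. By these labels, no wild-type allele is present in either group. Ages were 32, 33 and 58 days in both tissues. Spleen replicates 1, 2 and 3 are mice 2866 (32 days), 2868 (58 days) and 2976 (33 days), and marrow replicates 1, 2 and 3 are mice 2726 (58 days), 2976 (33 days) and the mouse labelled 32dscat (32 days). Mouse 2976 is thus the only mouse with a library in both groups. For reference, SMP of scat mice in crisis (3 spleen and 3 marrow libraries of the same 3 mice, 23 to 28 days) and of +/+ mice (3 spleen and 3 marrow libraries of different mice at 23 to 28 days, and 1 spleen and 2 marrow libraries at 32 to 58 days) were used, which makes 21 SMP libraries in all.

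In adult mice the bone marrow makes blood cells at rest, and the spleen takes up red cell production when anemia calls for more, a response known as stress erythropoiesis. Erythropoietin, acting through its receptor and STAT5, drives the erythroid branch, in which GATA1, TAL1 and KLF1 switch on globin, heme and membrane genes. The granulocyte and monocyte branches use PU.1, CEBPA and IRF8 and fill primary granules with enzymes such as myeloperoxidase and neutrophil elastase.

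Values are the authors' normalised counts, put on 1 scale by a median-ratio factor per library, taken over these 6 columns (rescaled counts). The 6 libraries hold 33.97 to 50.06 M normalised counts and 18366 to 18912 genes above 0. Smallest steps between low values put the depth at 30 to 37.9 M reads. The lowest total, that of marrow replicate 3, goes with values that have 1 step size where the other 5 libraries have 3. In that library the Y-linked gene Eif2s3y stood at 377.8 rescaled counts against 2492 to 4000 in the others, while Ddx3y stood at 3419 there and at 3870 to 4895 elsewhere. The mitochondrial share was 1.81 to 3.59%. Spleen replicate 2 stood apart. On the first principal component of the 6 libraries, which holds 48.2% of the variance, it lay at 79.8, the other spleen libraries at 14.7 and 22.3 and the marrow libraries at -43.6 to -30.9. Its rank correlation with the other spleen libraries was 0.976 and 0.978, where those 2 gave 0.991 and the marrow pairs at least 0.9906.

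The state labels of 2 marrow libraries were set against genes that differed between crisis and young wild-type marrow SMP. These 9 genes, among them the metallothioneins Mt1 and Mt2 and the transferrin receptor Tfrc, were called between those groups in the fit of all 21 libraries. The remission libraries enter that fit through the common scale, the filter on low values and the estimates of spread and mouse correlation, not through the means compared. On a scale where young wild-type marrow averages 0 and crisis marrow 100, the library labelled remission of mouse 2726 stood at 22.5, mouse 2976 at 25.8 and 32dscat at 46.2. The library labelled older wild type of mouse 27265, also 58 days old, stood at 60.8, and the other older wild-type marrow library at 13.8. Remission spleen libraries stood at 72.3 to 103 on the same scale, and young wild-type spleen libraries at 35.8 to 48. Labels were kept as given. Whether the labels of these 58-day-old mice were exchanged was not tested, and in that case marrow replicate 1 would be wild type. For the main lists, counts without marrow replicate 1 or spleen replicate 2 are given beside the result.

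The sort gate was checked at the level of mRNA. Kit, the stem cell factor receptor, was at 26300 to 32330 rescaled counts in marrow and 22370 to 31320 in spleen, and Cd48 also overlapped between tissues. Ly6a, which encodes Sca-1, was low everywhere, at 43.09 to 54.15 in marrow and 61.06 to 71.43 in spleen. Cd34 stood at 30670 to 35410 in marrow, at 24700 and 24330 in spleen replicates 1 and 3 and at 10010 in spleen replicate 2, a log2 difference of -0.88 (SE 0.31) that did not pass the test (limma adjusted p = 0.153). The CD16/32 genes lay lower in spleen. Fcgr2b had a log2 difference of -1.37 (SE 0.23, adjusted p = 0.0246), and Fcgr3, at 75.38 to 236.4 in marrow and 27.41 to 41.62 in spleen, differed by -1.98 (SE 0.45, adjusted p = 0.053). Of the lineage antigens, Cd3e and Ly6g were at or under 15.14 in every library and below the filter on low values, and the 6 tested members had a median log2 difference of -0.81 with none called. The summed level of the 8 lineage genes, most of it Ptprc (CD45), which progenitors also carry, was 13090 to 14550 in marrow and 6750 to 13060 in spleen. Rasa3 itself was at 10480 to 10970 in marrow and at 10090, 5828 and 10180 in spleen (log2 difference -0.34, SE 0.20, adjusted p = 0.365). The scat allele is a missense change, so the mRNA level does not check the genotype.

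Between spleen and marrow, 347 of 15182 genes tested (2.29%) passed an adjusted p of 0.05 in limma. Of these, 149 were higher in spleen (0.981% of genes tested) and 198 lower (1.3%), and 108 and 182 of them differed at least 2-fold. The 7 lists of erythroid, heme, globin, membrane, erythropoietin and iron genes held 28 of the 149 (18.8%). The 7 lists of granule, neutrophil, monocyte, dendritic, MHC class II, lymphoid and B-cell genes held 33 of the 198 (16.7%). The former had 18 early erythroid, 15 erythroid factor, 14 heme, 4 globin, 28 membrane, 16 erythropoietin and 15 iron genes tested. The latter had 15, 13, 20, 12, 10, 16 and 17, in the order named. Some genes, such as Ank1 and Ighm, are in more than 1 list. They count once in these shares and in each list below. The lists' share of all genes tested was not calculated, so these percentages do not show an excess of calls. In all 347 the 3 spleen libraries lay on one side of the 3 marrow libraries, as they did in 28.7% of all genes tested (14.2% above and 14.5% below). Where a library pools many cells, fewer cells of a type and less RNA per cell cannot be told apart. The count rested on single libraries: it was 13 without marrow replicate 1, 72 without marrow replicate 2, 34 without marrow replicate 3, 180 without spleen replicate 1, 804 without spleen replicate 2 and 1008 without spleen replicate 3. Passing in every one of these 6 fits were 10 genes. Of the 82 list members called, 1, 20 and 10 were called without marrow replicate 1, 2 and 3, and 39, 61 and 76 without spleen replicate 1, 2 and 3. The 1 left without marrow replicate 1 is a primary granule gene, and over all lists no other member was called then. Without spleen replicate 2, 346 of 15194 genes tested were called higher and 458 lower, more than the 149 and 198. List counts without that library are to be read beside these. With all 21 SMP libraries and the mouse as a random block, 262 of the 347 and 57 of the 82 were called. On the deposited scale, without rescaling, 943 genes were called, 552 higher and 391 lower, with the median of all genes at 0.129, and limma without trend or robust settings called 31. An exact test of 3 against 3 libraries has a smallest two-sided p of 0.1, and limma over all genes was used instead.

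**Figure D1:**
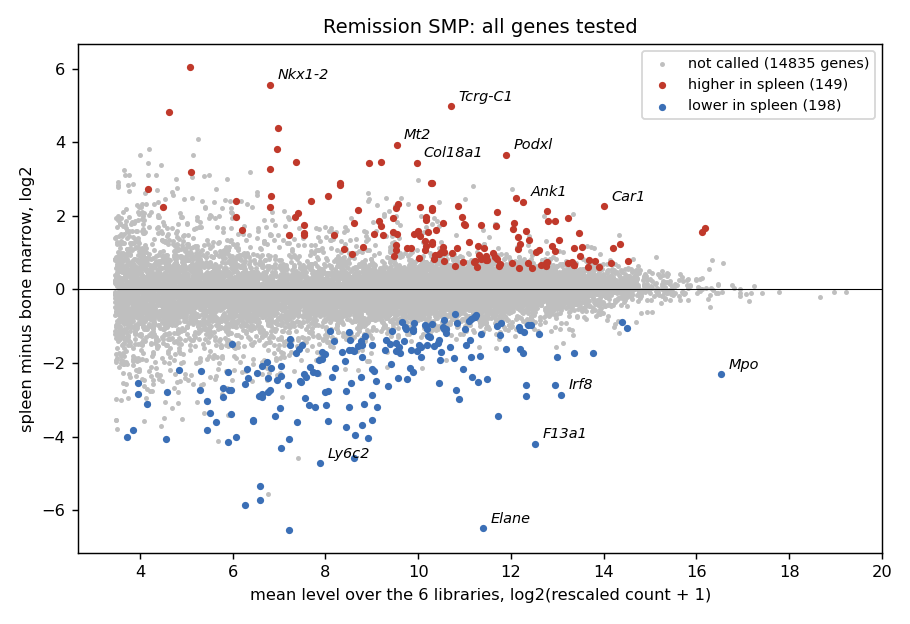
Spleen minus bone marrow difference (log2, vertical axis) against the mean level over the 6 remission SMP libraries (log2 of rescaled count + 1, horizontal axis), 1 point per gene tested. Coloured points are the 149 genes called higher and the 198 called lower in spleen, and Elane, at -6.49, is the lowest of the labelled genes.

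Sequence upstream of the genes that carry the contrast was read for 3 granule genes and 3 erythroid genes, chosen after their values and matches were seen. Each line gives the 250 bases before the gene's start in RefSeq, 5′ to 3′ on the gene's strand, on GRCm38.p6. RefSeq starts can differ from those of GENCODE, where Elane begins at chr10:79886247 and Prtn3 at chr10:79874476. Klf1 begins there at chr8:84901928 and Alas2 at chrX:150547375. The windows of Elane, Klf1 and Alas2 thus lie partly, and that of Prtn3 wholly, inside the GENCODE gene. Capitals mark the letters GAGGAAGT, a form of the PU.1 motif, in the granule genes, and AGATAA or TGATAA, forms of the GATA motif, in the erythroid genes, where they stand as their complements TTATCT and TTATCA. The granule genes are Elane (chr10:79886062-79886311, plus strand), Prtn3 (chr10:79879417-79879666, plus strand), which lies next to it, and Mpo (chr11:87793534-87793783, plus strand). The erythroid genes are Klf1 (chr8:84901732-84901981, plus strand), Epor (chr9:21963577-21963826, minus strand) and Alas2 (chrX:150547167-150547416, plus strand).
Elane: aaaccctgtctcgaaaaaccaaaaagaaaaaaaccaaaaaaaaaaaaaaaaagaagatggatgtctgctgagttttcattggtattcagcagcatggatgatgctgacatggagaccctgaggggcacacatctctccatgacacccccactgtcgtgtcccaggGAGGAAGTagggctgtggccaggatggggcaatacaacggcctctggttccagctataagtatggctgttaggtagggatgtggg
Prtn3: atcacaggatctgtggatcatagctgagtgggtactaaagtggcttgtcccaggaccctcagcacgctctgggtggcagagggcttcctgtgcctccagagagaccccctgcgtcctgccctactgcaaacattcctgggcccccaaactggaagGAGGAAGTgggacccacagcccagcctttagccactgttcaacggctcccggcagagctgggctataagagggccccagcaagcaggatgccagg
Mpo: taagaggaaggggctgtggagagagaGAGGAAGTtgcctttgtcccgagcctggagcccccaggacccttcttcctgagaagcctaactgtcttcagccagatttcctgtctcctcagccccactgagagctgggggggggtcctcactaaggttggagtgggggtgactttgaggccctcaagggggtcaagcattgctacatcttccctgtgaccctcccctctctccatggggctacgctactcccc
Klf1: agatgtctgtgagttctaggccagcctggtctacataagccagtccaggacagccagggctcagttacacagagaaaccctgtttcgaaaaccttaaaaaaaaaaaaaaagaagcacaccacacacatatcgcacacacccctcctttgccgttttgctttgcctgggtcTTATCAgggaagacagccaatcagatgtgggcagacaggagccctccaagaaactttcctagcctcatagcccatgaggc
Epor: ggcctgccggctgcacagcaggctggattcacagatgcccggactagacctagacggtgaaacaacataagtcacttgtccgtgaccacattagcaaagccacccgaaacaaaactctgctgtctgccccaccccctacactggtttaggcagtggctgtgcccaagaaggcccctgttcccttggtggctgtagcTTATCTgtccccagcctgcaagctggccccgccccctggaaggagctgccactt
Alas2: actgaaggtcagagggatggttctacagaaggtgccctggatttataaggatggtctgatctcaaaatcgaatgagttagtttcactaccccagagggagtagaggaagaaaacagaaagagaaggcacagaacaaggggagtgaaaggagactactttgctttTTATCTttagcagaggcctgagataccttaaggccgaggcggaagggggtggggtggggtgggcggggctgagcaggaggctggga
The match begins 85, 95 and 224 bases before the start in Elane, Prtn3 and Mpo, and 80, 54 and 86 bases before it in Klf1, Epor and Alas2. In all, 8 motifs were searched on both strands of windows from 250 bases before to 50 after the start. GAGGAAGT was in 12 of the 153 genes called lower that have such a window (7.8%), in 0 of the 101 called higher, and in 3.3% of the 10944 tested genes with a window. AGATAA or TGATAA was in 24 of 101 called higher (23.8%), in 25 of 153 called lower (16.3%) and in 10.4% of tested genes, against 19% of all 27025 windows. For the others the shares in genes called higher, called lower and tested follow, with that of all windows last. The E-box (CACCTG or CAGCTG) gave 29.7, 34.6, 29.8 and 32.6%, KLF (CCACACCC) 4.0, 4.6, 4.0 and 3.6%, and RUNX (TGTGGT) 12.9, 22.2, 13 and 16.9%. STAT (TTCNNNGAA) gave 8.9, 7.2, 7.1 and 8.5%, AP-1 (TGANTCA) 10.9, 8.5, 5.0 and 7.9%, and the interferon-response motif 3.0, 5.9, 3.2 and 3.5%. The letters GAGGAAGT were also in 3.3% of all windows. These are matches of letters and say nothing of binding.

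Genes of primary granules and promyelocytes were lower in spleen. Of 15 tested, 10 were called lower and none higher, with a median log2 difference of -2.31, where the median of all genes tested was -0.003. Elane, which encodes neutrophil elastase, was at 7731, 1661 and 6604 rescaled counts in the 3 marrow libraries and at 43.97, 35.9 and 68.78 in the 3 spleen libraries. Every marrow library lay far above every spleen library, and marrow replicate 2 was the lowest of its group. The log2 difference was -6.49 (SE 0.53, adjusted p = 0.00518). Mpo, myeloperoxidase, was at 189700, 112900 and 162300 in marrow and at 41760, 15360 and 44410 in spleen, with spleen replicate 2 the lowest (log2 difference -2.31, SE 0.38, adjusted p = 0.0228). Prtn3, proteinase 3, was at 11030, 5236 and 10390 in marrow and at 1542, 934.2 and 1820 in spleen (-2.61, SE 0.32, adjusted p = 0.00794). The log2 difference was -3.44 for Ctsg, cathepsin G, -3.68 for Ms4a3, a marker of granulocyte and monocyte progenitors, and -3.73 for Igsf6. Of the 3 transcription factors in the list, 2 were called. Cebpa, needed for granulocyte and monocyte progenitors, was at 2129 to 2790 in marrow and 465.2 to 1125 in spleen (-1.56, adjusted p = 0.0374), and Cebpe, a later granulocyte factor, differed by -2.93 (adjusted p = 0.0456). Gfi1, a transcriptional repressor, overlapped between the tissues (-0.98, adjusted p = 0.24). With spleen replicate 2 left out, 5 of the 15 were called, and without marrow replicate 1, 1 was. Elane (adjusted p = 0.0667) and Prtn3 (0.0501) were not among the 5. The 1 called without marrow replicate 1 was Elane (adjusted p = 0.0369). The fit with the mouse as a block called 9 lower, 8 of them among the 10. The summed level of the list was 203000 to 311400 in marrow and 71270 to 113500 in spleen.

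Mature neutrophil genes were low in both tissues. Their summed level was 2206 to 3745 in marrow and 1036 to 1483 in spleen over 14 genes, and 2 of 13 tested were called lower (median log2 difference -1.31). These were Mmp8, a collagenase of granules, at 122.1 to 179.9 in marrow and 23.57 to 34.52 in spleen, and S100a9, a calcium-binding protein of neutrophils, at 348 to 844.7 and 126.8 to 227.2. With spleen replicate 2 left out 4 were called lower, and with the mouse as a block 1 was and S100a9 was not (adjusted p = 0.116). Ly6g, which defines neutrophils, was at 6.837 or less in all 6 libraries. Of 8 eosinophil genes none was called (median -2.12), and of 14 mast cell and basophil genes Mcpt8, a basophil protease, was called lower (-2.48, adjusted p = 0.0356).

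Part of the monocyte list was lower in spleen. Of 20 tested monocyte and macrophage genes 6 were called lower and none higher (median log2 difference -0.76). Irf8, the factor that directs progenitors to monocytes and dendritic cells, was at 13740, 12110 and 19600 in marrow and at 2488, 1161 and 2889 in spleen. The tissues did not overlap, and the log2 difference was -2.87 (SE 0.32, adjusted p = 0.00615). Csf1r, the receptor of macrophage colony-stimulating factor, was at 4409, 3368 and 4886 in marrow and at 918.9, 404.2 and 1016 in spleen (-2.53, SE 0.32, adjusted p = 0.00974). Ccr2, a chemokine receptor that lets monocytes leave the marrow, was at 3433, 2875 and 3572 in marrow and at 458.4, 223.6 and 688.8 in spleen (-2.98, SE 0.34, adjusted p = 0.00651). F13a1, which encodes the A chain of coagulation factor XIII, was among the 10 largest falls, at 13150, 8027 and 11700 in marrow and at 730.2, 200.5 and 1358 in spleen (-4.20, SE 0.62, adjusted p = 0.0246). Klf4, a factor of monocyte development, and Ly86, the partner of an endotoxin receptor relative, had log2 differences of -3.15 and -3.21. In the fit without spleen replicate 2, 10 of the 20 were called lower and 1 higher, and without marrow replicate 1 none was.

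Dendritic cell and antigen presentation genes were lower in the spleen as well. Of 12 dendritic genes tested, 4 were called lower (median -1.56). Clec9a, a receptor of conventional dendritic cells, was at 258.8, 163.5 and 283 in marrow and at 20.33, 20.91 and 31 in spleen (-3.22, SE 0.35, adjusted p = 0.00571). Siglech, a receptor of plasmacytoid dendritic cells, was at 218.4, 306.7 and 887.9 in marrow and at 74.98, 40.07 and 60.16 in spleen, with marrow replicate 3 the highest (-2.77, adjusted p = 0.0284). Batf3 and Ly6d were called too. Of 10 MHC class II genes 4 were called lower (median -1.53), and all 10 were lower in each spleen library than in each marrow library, as 14.5% of all genes tested were. They were H2-Aa, a chain of the I-A molecule, at 1226 to 2963 in marrow and 475.4 to 670.2 in spleen, the peptide-loading genes H2-DMb1 and H2-DMb2, and H2-Ob. Without spleen replicate 2, 6 dendritic and 5 MHC class II genes were called lower, and without marrow replicate 1 none of either list was. With the mouse as a block Ly6d (adjusted p = 0.0992), H2-Aa (0.0575) and H2-Ob (0.169) lost their call.

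Early lymphoid and B-lineage genes followed the same direction. Of 16 lymphoid priming genes 4 were called lower and none higher (median -1.19). Dntt, the DNA polymerase that adds bases at immunoglobulin and T cell receptor joints, was at 22360, 18040 and 23190 in marrow and at 10070, 3581 and 7062 in spleen (-1.73, SE 0.32, adjusted p = 0.0303). Il7r, the interleukin 7 receptor, was at 1542 to 1599 in marrow and at 339.5 to 803.5 in spleen (-1.57, adjusted p = 0.0271). Ighm, the constant region of IgM, was at 11050 to 20140 in marrow and at 2968 to 6787 in spleen (-1.73, adjusted p = 0.0271), and the B-cell factor Ebf1 gave -2.27. Of 17 B-cell genes 5 were called lower (median -2.15), among them Spib and Cd22, and their summed level was 14560 to 25680 in marrow and 4363 to 8863 in spleen. The part of any B cells in these values was not tested. With spleen replicate 2 left out, 10 lymphoid priming and 7 B-cell genes were called lower, and without marrow replicate 1 none of either list was. With the mouse as a block 1 lymphoid priming gene, Ighm, and 2 of the B-cell genes kept their call, while Dntt (adjusted p = 0.131), Il7r (0.0934), Ebf1 (0.259) and Cd22 (0.0626) did not. Flt3, a receptor of early lymphoid and dendritic progenitors, was at 23910 to 25560 in marrow and 7097 to 16760 in spleen (-1.01, adjusted p = 0.0966).

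Of 35 immunoglobulin segments tested 3 were called lower and none higher. Igkv15-103 and Ighv7-1 were among the 10 largest falls. Igkv15-103 was at 241.2, 62.37 and 576.1 in marrow and at 3.87, 1.29 and 0 in spleen, and Ighv7-1 at 124, 35.65 and 402.2 and at 0, 0 and 11.63. Segments of 1 family share much sequence, so reads can be split between them and these values are uncertain.

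**Figure D2:**
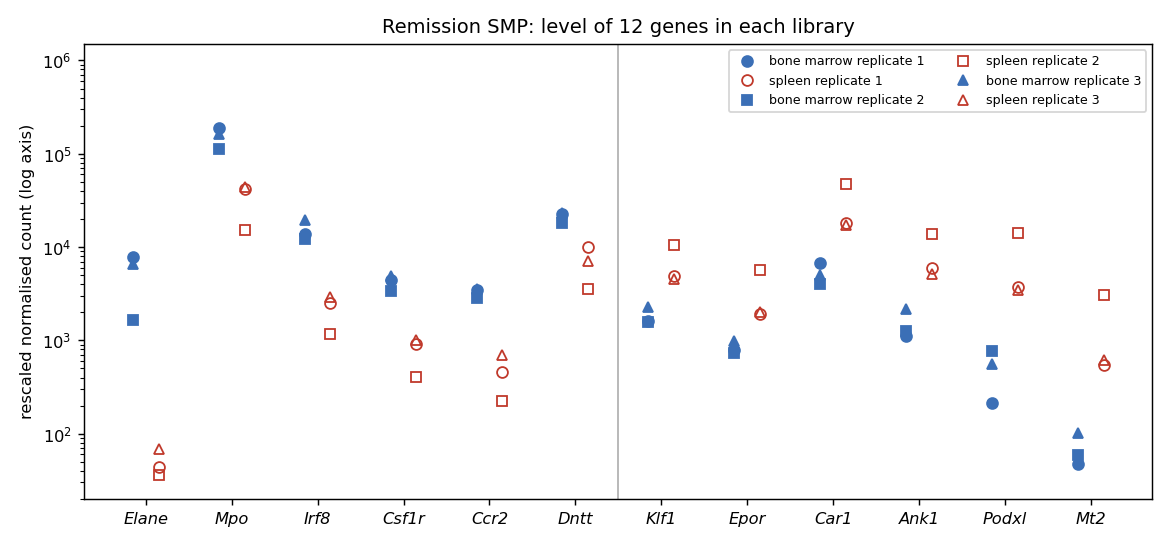
Rescaled normalised counts (log axis) of 12 genes in the 3 bone marrow (filled blue) and 3 spleen (open red) remission SMP libraries, with a symbol per replicate. The 6 genes left of the line were lower in every spleen library and the 6 right of it higher, with Epor at 724 to 976.9 in marrow and 1925 to 5645 in spleen.

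The other largest falls were genes of monocytes, granulocytes and innate sensing. Ly6c1 and Ly6c2, near-identical neighbours on chromosome 15 whose reads may be split between them, encode the Ly6C antigen of monocytes. Ly6c2 was at 540.1, 254.6 and 570.4 in marrow and at 11.06, 13.93 and 23.04 in spleen (-4.72, SE 0.42, adjusted p = 0.00518), and Ly6c1 gave -4.59. Mefv, which encodes the inflammasome protein pyrin, was at 178.7, 83.81 and 188.2 in marrow and at 1.24, 0 and 5.54 in spleen (-5.86, adjusted p = 0.00833). Clec7a, the beta-glucan receptor Dectin-1, was at 171.8 to 432.2 in marrow and at 5.24 to 25.13 in spleen (-4.07). Trem3, a receptor of myeloid cells, and Ifi205, an interferon-inducible member of the Ifi200 family, gave -4.15 and -4.31. Of the 10 largest falls, 4, 9 and 4 were called without marrow replicate 1, 2 and 3, and 8, 8 and 10 without spleen replicate 1, 2 and 3. Ly6c1, Ly6c2 and Ifi205 were among the 10 genes called in each of the 6 fits that left out a library. The other 7, named after their values were seen, were Clec12a (-2.73), Mpeg1 (-2.59), which encodes the pore-forming protein perforin-2, March1 (-3.46), a ubiquitin ligase that removes MHC class II from the surface, Grb10 (1.43), an adaptor of growth factor receptors, Col18a1 (3.45) and the gene models 4933440M02Rik and Gm8129. Mpeg1 was at 12550, 11910 and 16250 in marrow and at 2669, 1489 and 2812 in spleen. Gm8129 was listed at 0 in the 3 marrow libraries and at 57.51, 62.36 and 76.4 in spleen.

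Erythroid genes were higher in spleen. Of 18 early erythroid progenitor genes 7 were called higher and none lower, with a median log2 difference of 1.58. In 16 of the 18 all spleen libraries lay above all marrow libraries, as in 14.2% of all genes tested. Car1, the carbonic anhydrase of erythroid progenitors, was at 6751, 4002 and 5011 rescaled counts in marrow and at 18310, 47050 and 17160 in spleen. Spleen replicate 2 was the highest, and the log2 difference was 2.26 (SE 0.36, adjusted p = 0.0209). Epor, the erythropoietin receptor, was at 783.1, 724 and 976.9 in marrow and at 1925, 5645 and 2030 in spleen (1.77, SE 0.37, adjusted p = 0.0446). Rhd, which encodes a Rhesus blood group protein, was at 261.2 to 692.4 in marrow and 1210 to 3534 in spleen, and Ces2g, a carboxylesterase, rose by 2.12. In the fit without spleen replicate 2, 9 of the 18 were called higher, and without marrow replicate 1 none was. With the mouse as a block 7 were called, but only 4 of them were among the 7 called in the 6 libraries. Car1 was among those that lost their call (adjusted p = 0.0538).

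Among 15 erythroid transcription factors, 2 were called higher and the median was 0.26. Klf1, the factor that drives globin and membrane genes, was at 1612, 1579 and 2264 in marrow and at 4953, 10630 and 4581 in spleen (1.79, SE 0.30, adjusted p = 0.0235). Tal1, which acts from stem cells to red cell precursors, was at 7639 to 8013 in marrow and 12210 to 20200 in spleen (0.91, adjusted p = 0.0433). Gata1, the leading factor of the branch, was at 2506 to 2878 in marrow and at 4822, 9424 and 4516 in spleen, and its log2 difference of 1.15 (SE 0.25) missed the threshold (adjusted p = 0.0514). Its partner Zfpm1 (FOG1) gave 0.81 (adjusted p = 0.0516). Without spleen replicate 2, 4 of the 15 were called higher, and without marrow replicate 1 none was. With the mouse as a block 4 were called higher, among them Gata1 (adjusted p = 0.0342) and Zfpm1 (0.041).

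Red cell membrane genes had the most calls of the lists used. Of 28 tested, 14 were called higher and none lower, the median was 1.64 and all 28 lay above 0. Ank1, the ankyrin that ties the skeleton to the membrane, was at 1110, 1258 and 2159 in marrow and at 6023, 13760 and 5133 in spleen (2.38, SE 0.37, adjusted p = 0.0197). Sptb, beta spectrin, was at 891.7, 931.5 and 2033 in marrow and at 5556, 7015 and 3401 in spleen (2.10, SE 0.34, adjusted p = 0.0223). Slc4a1, the anion exchanger band 3, rose by 1.93. Slc4a1 was at 2522 to 5547 in marrow and was highest in spleen replicate 1, at 25300, with 9219 and 11450 in replicates 2 and 3. With spleen replicate 2 left out, 15 of the 28 were called, and without marrow replicate 1 none was. The fit with the mouse as a block called 13 higher, 10 of them among the 14.

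Heme and globin genes rose in part. Of 14 heme synthesis genes 4 were called higher (median 0.59). Alas2, the first enzyme of heme synthesis in erythroid cells, was at 2588, 1400 and 1976 in marrow and at 10090, 4661 and 4555 in spleen (1.63, SE 0.32, adjusted p = 0.0387), and Alad, Cpox and Fech, which encode later enzymes of the pathway, were called too. The 4 adult globin genes all lay higher in spleen, and 3 were called. Hbb-bs was at 48180, 26470 and 31300 in marrow and at 152100, 87880 and 78890 in spleen (1.57, adjusted p = 0.0271). Hba-a1 and Hba-a2 are near-identical copies, so their values of 1.66 and 1.48 are uncertain one by one, and Hba-a2 missed the threshold (adjusted p = 0.0516). Adult globin made up 0.145 to 0.271% of the marrow libraries and 0.422 to 0.869% of the spleen libraries. Whether globin RNA from red cells of the spleen adds to this was not tested. In the fit without spleen replicate 2, 4 heme genes and no globin were called, and without marrow replicate 1 none of either list was. No globin was called with the mouse as a block (adjusted p = 0.0662 for Hbb-bs, 0.0705 for Hbb-bt and 0.0553 for Hba-a1).

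**Figure D3:**
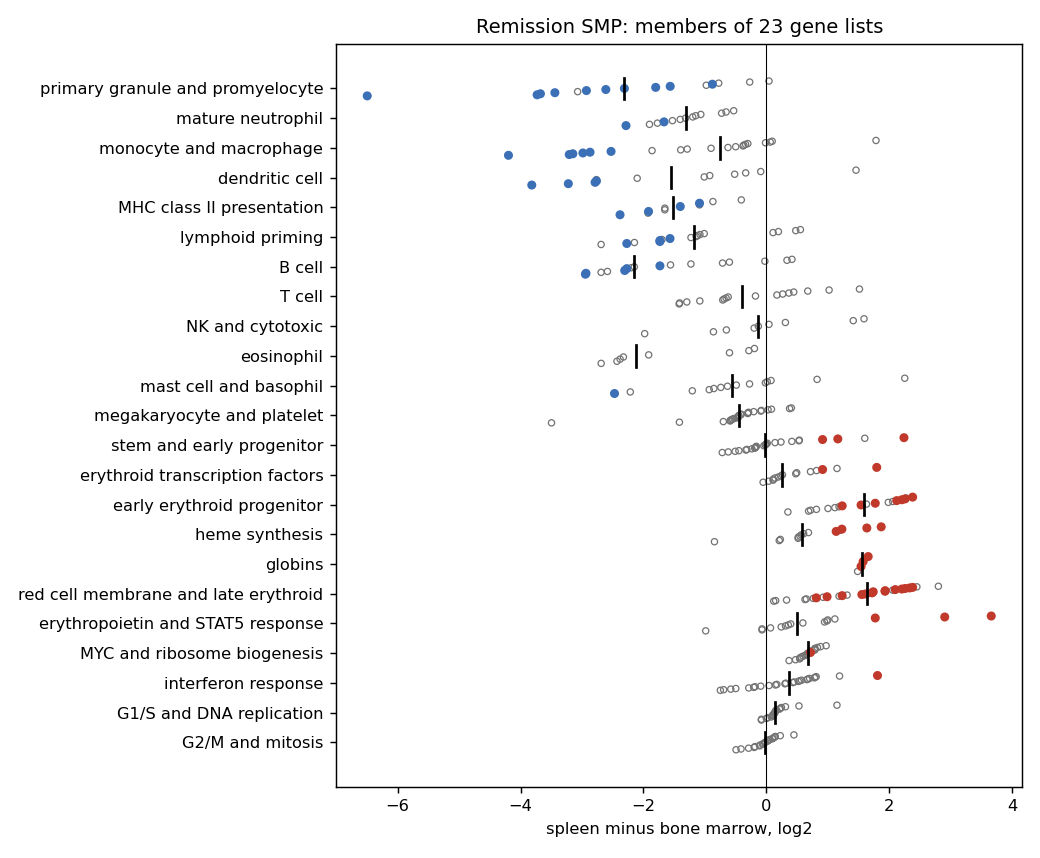
Spleen minus bone marrow difference (log2) of each tested member of 23 gene lists in remission SMP, 1 point per gene, filled where called (red higher, blue lower) and open where not, with a black bar at the list's median. Red cell membrane genes have 14 of 28 called higher and primary granule genes 10 of 15 called lower, while the cell cycle lists lie near 0 with none called.

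Of 16 genes of the erythropoietin and STAT5 response, 3 were called higher (median 0.50). Besides Epor these were Erfe, erythroferrone, the hormone by which erythroblasts lower hepcidin, and Podxl, a sialomucin related to CD34. Erfe was at 44.09, 57.54 and 83.33 in marrow and at 402.5, 1095 and 208.7 in spleen (2.90, SE 0.54, adjusted p = 0.0322). Podxl was at 210.7, 769.8 and 558.8 in marrow and at 3761, 14010 and 3490 in spleen, with spleen replicate 2 the highest (3.66, SE 0.63, adjusted p = 0.0336). Without spleen replicate 2, 2 of the 16 were called, and without marrow replicate 1 none was. With the mouse as a block Erfe missed the threshold (adjusted p = 0.0503). Of 15 iron genes Steap3, a ferrireductase of endosomes, was called higher (1.33), and 5 were without spleen replicate 2.

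The largest rises included genes outside these lists. Nkx1-2, a homeobox gene, was at 0, 4.45 and 14.6 in marrow and at 139.7, 275.9 and 231.3 in spleen (5.57, SE 0.87, adjusted p = 0.0197). Tcrg-C1, a constant region of the T cell receptor gamma chain, was at 19.58, 205 and 208.3 in marrow and at 2570, 4803 and 2225 in spleen (4.97, SE 0.85, adjusted p = 0.0333). It was the only 1 of 11 T cell receptor segments called, and constant regions of this family are alike in sequence. The 11 segments had a median of 0.83. The T-cell list as a whole had none of 16 called and a median of -0.40, with a summed level of 4090 to 4684 in marrow and 3098 to 5809 in spleen. Trbc1, another T cell receptor constant region, was at 25.45 to 43.77 in marrow and 52.2 to 142.6 in spleen (1.51, adjusted p = 0.115). Without spleen replicate 2, 2 T-cell genes were called higher and 1 lower, with a median of 0.12. Tcrg-C1 was not called in that fit (adjusted p = 0.248). Cd3e was at 0 to 1.432 in marrow and 0 to 15.14 in spleen. Mt2, a metallothionein that binds zinc, was at 47.04, 59.12 and 102 in marrow and at 548.5, 3069 and 622.8 in spleen (3.93, SE 0.60, adjusted p = 0.0197), and its neighbour on chromosome 8, Mt1, rose by 2.90. Col18a1, collagen XVIII, was at 80.14, 216 and 225.5 in marrow and at 2646, 1223 and 1607 in spleen (3.45, SE 0.42, adjusted p = 0.00794). Ntn4, netrin 4, rose by 3.83, Acsl6, an acyl-CoA synthetase, by 3.48, and C2cd4a, Sh3tc2 and Apol11b by 4.38, 3.46 and 3.44. Of the 10 largest rises, 3, 5 and 3 were called without marrow replicate 1, 2 and 3, and 7, 8 and 10 without spleen replicate 1, 2 and 3. Nqo1, a quinone reductase of the oxidative stress defence, was at 253.6 to 294.8 in marrow and at 766.9 to 1071 in spleen (1.73, SE 0.20, adjusted p = 0.00651), the only 1 of 19 genes of its list called, where 3 were without spleen replicate 2.

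Of 18 MYC and ribosome biogenesis genes 1 was called higher, Cad, an enzyme of pyrimidine synthesis (0.72, adjusted p = 0.0383). Without spleen replicate 2, 10 were called, without marrow replicate 1 none, and with the mouse as a block 5. The median was 0.68, and in 17 of the 18 all spleen libraries lay above all marrow libraries, as in 14.2% of all genes tested. Myc itself was at 15980, 18430 and 19390 in marrow and at 28790, 24680 and 21540 in spleen (0.47, SE 0.14, adjusted p = 0.112). Of 20 G1/S and 20 G2/M genes none was called by limma (medians 0.14 and -0.02).

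Other lists had few calls. Of 26 interferon response genes Rsad2, the antiviral protein viperin, was called higher, at 609 to 682.1 in marrow and 1665 to 3479 in spleen (1.81, SE 0.25, adjusted p = 0.0165), and without spleen replicate 2, 5 were. Of 25 stem and early progenitor genes 3 were called higher (median -0.02): Tal1, Ifitm1 and the immediate early factor Egr1, which was at 283.7 to 416 in marrow and at 2771, 1788 and 738.3 in spleen (2.24, adjusted p = 0.0322). Slamf1 (CD150), carried by stem cells and by megakaryocyte and erythroid progenitors, rose by 0.76 (adjusted p = 0.0495). With the mouse as a block neither Ifitm1 (adjusted p = 0.117) nor Slamf1 (0.233) was called. Of 28 Ras and Rap regulators 2 were called lower, Rasa4 (-1.63) and Rasal1 (-1.26), both GTPase-activating proteins of Ras, and none higher. Without spleen replicate 2, 4 of them were, and with the mouse as a block Rasal1 was not (adjusted p = 0.0727). Of 24 cytokine receptor genes Epor was called higher and Csf1r, Il6ra and Il6st lower, and 8 were lower without spleen replicate 2. The 25 megakaryocyte and platelet genes had none called and a median of -0.45. Among them Pf4, platelet factor 4, was at 1185 to 1503 in marrow and at 275.6 to 773.5 in spleen (-1.41, SE 0.33, adjusted p = 0.059). The lists of p53, NF-kB, Wnt, HOX, unfolded protein and stroma genes had none called. None of the genes in these lists was called without marrow replicate 1.

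Mouse 2976 gave both a spleen and a marrow library, so the difference could be read within 1 animal, though its libraries are also part of the test. The sign within this mouse is fixed by the choice of genes, whose libraries do not overlap, and only the size is described. The median log2 difference of the genes called higher was 1.153 within mouse 2976 and 1.475 over all 6 libraries. For the genes called lower it was -1.426 and -2.12, so the difference within this animal was smaller. The median of all genes tested within the mouse was 0.008.

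The same tissue difference was read in SMP of the other states, in 1 fit of all 21 libraries with the mouse as a random block. In this fit 202 genes (1.31%) were called higher and 227 (1.47%) lower in remission spleen. In crisis 3427 of 15393 genes (22.3%) were called higher and 3215 (20.9%) lower in spleen, and in young wild type 59 (0.383%) and 12 (0.078%). Of the 149 genes called higher in remission spleen, 146 had the same sign in crisis and 131 were called there, and 146 had the same sign in young wild type and 24 were called. Of the 198 called lower, 196 had the same sign and 188 were called in crisis, and 192 and 5 in young wild type. The counts in the other states depend on the libraries in the fit and on the block. All 3 crisis mice gave both tissues. With the 6 crisis libraries alone and the mouse as a block, a fit chosen after seeing the data, limma called 1270 genes higher (8.41%) and 1476 lower (9.77%), of which 115 and 181 were called in remission in the same direction. The same libraries without the block gave 0 (3992 at an unadjusted p under 0.05). With the 6 young wild-type libraries alone, 521 genes were called higher (3.35%) and 365 lower (2.34%), of which 97 and 68 were called in remission in the same direction. The median log2 difference of the genes called higher was 1.42 in remission, 1.276 in crisis and 1.082 in young wild type. That of the genes called lower was -2.034, -2.244 and -0.893. The genes were chosen by their call in remission, so these sizes are a description.

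**Figure D4:**
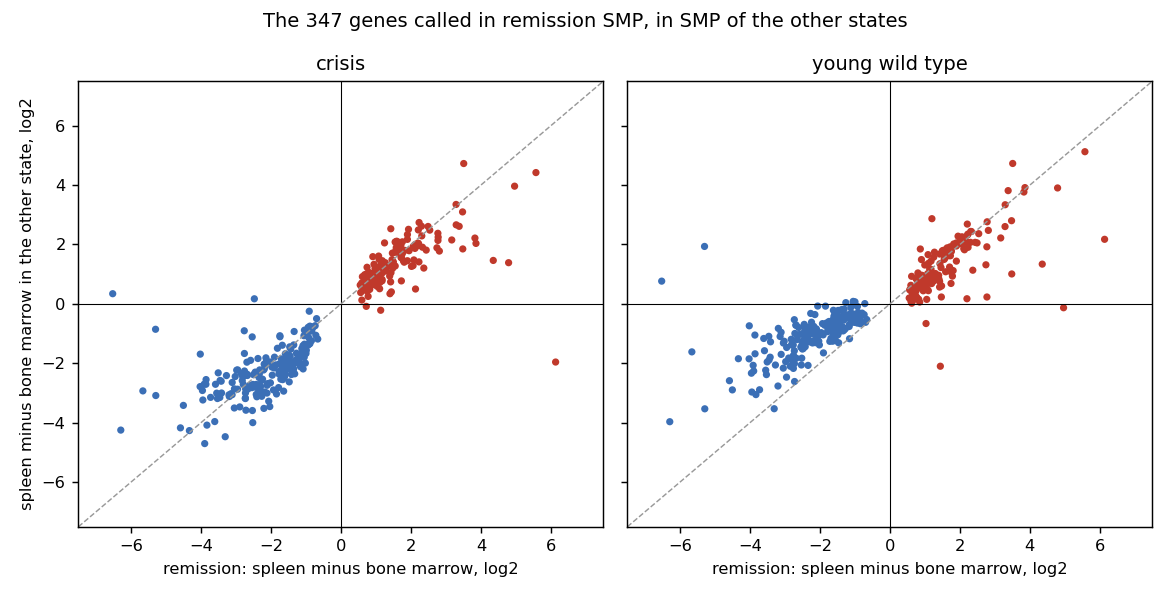
Spleen minus bone marrow difference (log2) of the 347 genes in remission SMP (horizontal axes) against the same difference in crisis (left) and young wild-type (right) SMP, 1 point per gene, red for genes called higher and blue for genes called lower in remission spleen. The dashed line marks equal differences, and 146 of the red and 196 of the blue genes keep their sign in crisis.

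No gene passed the test of a difference between states. For remission against crisis 0 of 15393 genes passed in limma and 1479 had an unadjusted p under 0.05, and for remission against young wild type 0 passed and 1018 had one. The smallest adjusted p were 0.51 and 0.658. Without marrow replicate 3, Arnt2 passed against crisis (6.42, adjusted p = 0.027), and without spleen replicate 2, Zfp82 did (-1.70, adjusted p = 0.0365). MHC class II genes had a list median of -1.53 in remission, -2.459 in crisis and 0.014 in young wild type. The MYC list had 0.677, 0.705 and 0.125. In the same order, early erythroid genes had 1.584, 1.447 and 1.54, and red cell membrane genes 1.636, 1.572 and 1.565. Primary granule genes had -2.31, -2.102 and -1.16, monocyte genes -0.762, -1.376 and -0.252, and lymphoid priming genes -1.185, -1.614 and -0.411. The medians of these erythroid, granule, monocyte and lymphoid lists kept their sign in young wild type. For H2-Aa the difference from young wild type was -1.76 (adjusted p = 0.701). Igkv15-103 had the largest difference from both states among genes with the 5 smallest p (-6.86 and -7.28).

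Levels were set side by side over the SMP groups, on the scale of all 21 libraries. Elane stood at 1745 to 8209 in remission marrow, 891.1 to 2857 in crisis marrow and 1298 to 4907 in young wild-type marrow, and these ranges overlap. In spleen it was at 37.55 to 71.91 in remission, 54.32 to 154.3 in crisis and 94.66 to 186.6 in young wild type. Irf8 was at 1214 to 3021 in remission spleen and 1733 to 4358 in crisis spleen, and at 4082 to 7941 in young wild-type spleen, while the marrow ranges of the 3 states overlapped. Klf1 was at 4790 to 11120 in remission spleen, 8525 to 18360 in crisis spleen and 3263 to 5254 in young wild-type spleen. Its marrow level was 1659 to 2371 in remission, 2927 to 4185 in crisis and 1024 to 1816 in young wild type. Klf1 in remission thus overlapped young wild type in both tissues, and the tissue difference was 1.76, 1.72 and 1.77 in remission, crisis and young wild type.

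Marrow levels of Mt2 and Tcrg-C1 were set beside those of the other states. Mt2 was at 49.94 to 106.8 in remission marrow and at 922 to 7783 in crisis marrow, without overlap, and at 7.325 to 45.73 in young wild-type marrow. In spleen it was at 573.4 to 3210 in remission, 3246 to 21830 in crisis and 133.1 to 411.1 in young wild type. Remission against crisis gave -5.15 in marrow (adjusted p = 0.0679) and -3.33 in spleen (adjusted p = 0.0277). Tcrg-C1 was at 2327 to 5023 in remission spleen and 4433 to 8402 in crisis spleen. In marrow it was at 20.79 to 218.2 in remission and at 1468 to 3150 in crisis, and at 1820 in the library labelled older wild type of mouse 27265. In young wild type Tcrg-C1 was also higher in spleen than in marrow (3.90, limma adjusted p = 0.134). Crisis marrow lay above young wild-type marrow by 6.40 (adjusted p = 0.0531). Over all genes, 2421 were called between remission and crisis spleen (1309 higher and 1112 lower in remission, 8.5% and 7.22%). Between remission and crisis marrow limma called 1 gene higher in remission (0.0065%), Igkv15-103, with 1337 at an unadjusted p under 0.05. Against older wild type, limma called Gm28052 and Nop10 higher (0.013%) and Matn4 lower (0.0065%) in remission spleen, where the wild-type group is 1 library, with 2731 genes at an unadjusted p under 0.05, and none in marrow, with 87. Crisis and remission mice differ in age as well as state, which cannot be told apart.

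**Figure D5:**
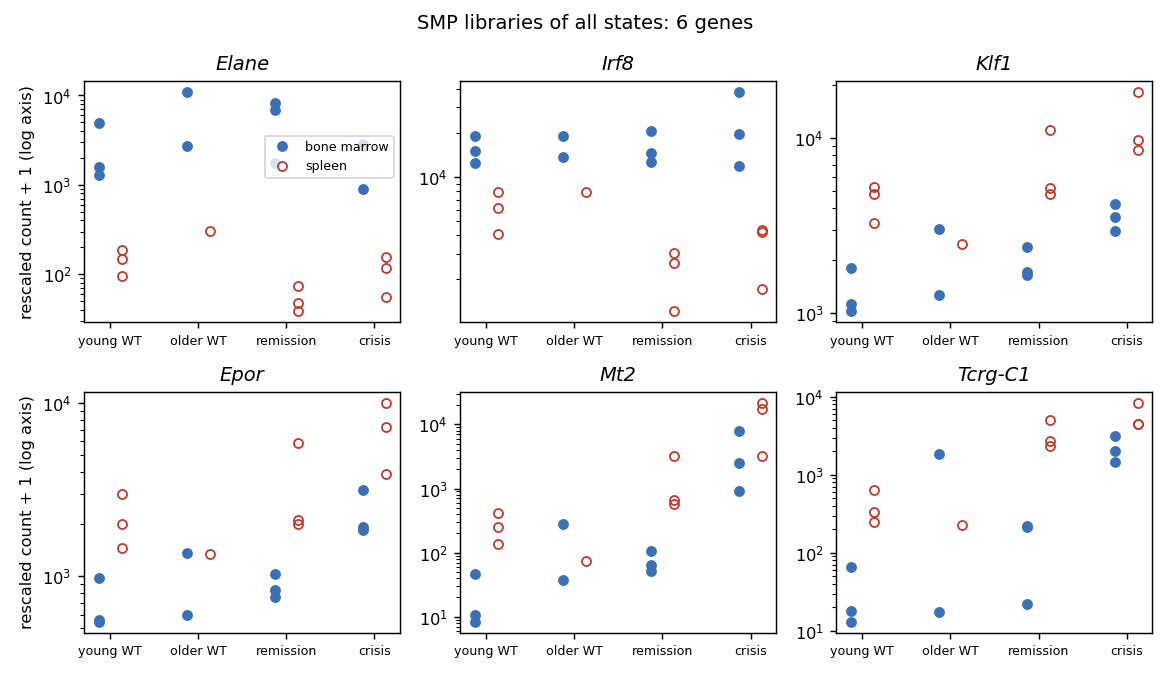
Rescaled normalised counts + 1 (log axis, scale of all 21 SMP libraries) of 6 genes in bone marrow (filled blue) and spleen (open red) SMP of young wild-type, older wild-type, remission and crisis mice, 1 point per library. Elane is at 37.55 to 71.91 in remission spleen and 1745 to 8209 in remission marrow.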

How the data were processed

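RNA-seq libraries of sorted SMP cells were made from polyadenylated RNA, per the labels' protocols. Per the submitters' processing notes, Bowtie2 2.2.0, RSEM, DESeq2 and GRCm38 were used, and their roles and order are not given in the sources used here. The deposited values are a normalised count signal per gene and library that is not whole, so no count test was run. The authors also deposited a table of regularised log2 values, used as an alternative. Of 26286 genes, 25607 had a symbol in GENCODE M21.

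The 6 remission columns were rescaled by their median ratio, turned into log2(value + 1) and filtered at a mean of 10. Differences are on that scale, which understates low genes. Limma 3.58.1 in R 4.3.3 (trend, robust) fitted 1 mean per tissue, two-sided, Benjamini-Hochberg adjusted over 15182 genes, threshold 0.05. It was tested on simulated data. Differences between states used all 21 SMP libraries, rescaled together, with the mouse as a random block (correlation 0.277), since crisis mice and mouse 2976 gave both tissues. The older wild-type spleen group is 1 library and takes its spread from the other groups. Replicate numbers follow accession order and pair nothing. Nothing says that libraries of 1 group were prepared separately, so p-values measure only the spread between these libraries.

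The comparison, the 45 gene lists and the naming rule were chosen with earlier results of these data known. Lists are described by counts and medians, without a test. Named by rule were the sort gate, the 10 largest rises and falls among called genes with a mean of at least 100 and a proper gene name, up to 4 members of each list by p, and the 5 smallest p per difference between states. Other members were named after their values were seen. Single values of some list members are not reported here. Promoters come from RefSeq (GRCm38.p6), which matched 101 of 149 genes called higher and 153 of 198 called lower. Alternatives covered rescaling, pseudocount, filter, table, moderation, blocks and left-out libraries.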

Additional observations from a re-analysis of the deposited data

How the results depend on the processing

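The number of genes called between remission spleen and marrow SMP was 347, and it moved by more than 1.5 times under 5 kinds of change. It was 943 without rescaling, 226 with a mean of at least 100, and 31 without trend and robust settings. It ranged from 13 to 1008 when 1 library was left out. Without both marrow replicate 1 and spleen replicate 2, chosen after seeing the data, it was 625, of which 301 were among the 347. For the other changes of scale, pseudocount, filter and table it was 308 to 461. Pairing by mouse could rest on mouse 2976 alone. All 21 SMP libraries gave 429 calls with the mouse as a replicate block and 344 without the block, of which 262 and 238 were among the 347, and age as a block in the 6 libraries gave 296. For the difference between remission and crisis the count was 0, and 0 to 1 when 1 library was left out, and for remission against young wild type it was 0 throughout (limma, 264 to 2142 at an unadjusted p under 0.05). The replicate block changed no call there. With remission and young wild type alone the block could not be fitted and was left out. Of 1828 values for the 102 called genes named, 1278 passed, 550 kept the direction without passing and none reversed, which the choice of genes fixes where only a library is left out. Kit and Cd48, not called, crossed 0. Kit was at 0.098 without rescaling, -0.12 to 0.12 with 1 library left out and 0.215 without both libraries, and Cd48 at 0.113, -0.12 to 0.15 and 0.059. The cause was not tested. Estimated depth was 30 to 37.9 M reads in all 6 libraries, and how much of the spread between them comes from mice, sorting or preparation was not tested.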

Other observations

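Genes of other signalling lists were called in small numbers. Tgfbr3, the betaglycan co-receptor of TGF-beta, was at 1883 to 2359 rescaled counts in remission marrow and 3149 to 3936 in remission spleen (log2 difference 0.79, SE 0.14, limma adjusted p = 0.0284). Ltbp1, which binds latent TGF-beta, was at 668.6 to 876.9 and 1182 to 1461 (0.85, adjusted p = 0.0425), and these were 2 of 16 genes of that pathway. Of 18 Notch genes Dtx4, a Deltex ubiquitin ligase, was called lower in spleen, at 661.9 to 955.3 in marrow and 108.5 to 294.5 in spleen (-2.22, adjusted p = 0.0197). Of 13 genes of stress erythropoiesis signals 1 was called lower in spleen and none higher. The median of that list was -0.25, with 5 of the 13 above 0. The gene called was Id2, an inhibitor of E proteins, at 309.1 to 629.3 in marrow and 62.84 to 155.8 in spleen (-2.13, adjusted p = 0.0285). Of 25 hypoxia and glycolysis genes Hif3a (1.19) and Hk1, the hexokinase of red cells (0.77), were called higher. Of 24 adhesion and homing genes Adgre5 (CD97) was called higher, at 975.3 to 1448 in marrow and 2323 to 4537 in spleen (1.28, adjusted p = 0.0433). Without spleen replicate 2, 2 Notch genes were called lower, and 1 adhesion gene higher and 3 lower. Over all genes, leaving out that library gave 346 called higher and 458 lower of 15194 tested. None of the genes named here was called without marrow replicate 1. With all 21 SMP libraries and the mouse as a block, Tgfbr3 (adjusted p = 0.0507), Ltbp1 (0.223) and Hif3a (0.0522) were not called.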
